A study of Mus musculus with 6 samples.

Results

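The Ifit gene cluster of mouse chromosome 19 holds 6 protein-coding genes, Ifit2, Ifit3, Ifit1bl1, Ifit3b, Ifit1bl2 and Ifit1, out of 21887 in the gene table used. Its open chromatin was described in blood monocytes from thrombocytopenic and control mice, with ATAC-seq, a method that cuts and tags accessible DNA with the Tn5 transposase. The DTR group holds 3 libraries from PF4cre-iDTR mice, in which Cre driven by the Pf4 promoter switches on the diphtheria toxin receptor, which makes megakaryocytes, and with them the supply of platelets, sensitive to the toxin. The WT group holds 3 libraries from wild-type mice, which have no such receptor, and all mice of both groups were given diphtheria toxin. Strain, age, dose and the interval after the toxin are not given in the labels, nor is whether a library is 1 animal or a pool. The 6 genes were taken by name, and they were chosen from results of these same lists: the number, width and fold enrichment of peaks in DTR against WT were known when they were picked. That contrast is therefore given as a description, without a test.

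Ifit genes encode interferon-induced proteins with tetratricopeptide repeats. They are close to silent in most resting cells and are among the most strongly induced genes after type I interferon. Receptor signalling through the kinases Jak1 and Tyk2 then leads to binding of transcription factors at the interferon-stimulated response element of their promoters. Ifit1 binds viral RNA whose cap lacks host methylation and blocks its translation. Ifit2 and Ifit3 act with it in larger complexes, Ifit3b is a close copy of Ifit3, and Ifit1bl1 and Ifit1bl2 are relatives of Ifit1. Monocytes are among the cells that respond to interferon in this way.

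The promoter sequences show where such an element could lie. RefSeq (GRCm38.p6) lists 9 promoters for the 6 genes, each reaching from 250 bases before to 50 bases after a start site. The core of the element was searched on both strands as GAAA, 2 bases of any kind and GAAA again, which reads as TTTC, 2 bases and TTTC on the other strand. It was found in 6 of these 9 promoters, against 3.44% of all 32851 listed promoters. By gene it was found in 5 of the 6, against 3.99% of all genes with a listed promoter. These promoters are not independent, since some are near copies or share DNA, as described below. The stretches that hold the match read as follows, 5′ to 3′ on the strand of the gene and with the matches in capitals. They are given because peaks of all libraries cover these matches.
Ifit3, chr19:34583353-34583436, plus strand: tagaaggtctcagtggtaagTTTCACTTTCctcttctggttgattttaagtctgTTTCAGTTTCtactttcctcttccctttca
Ifit3b, chr19:34607749-34607832, plus strand: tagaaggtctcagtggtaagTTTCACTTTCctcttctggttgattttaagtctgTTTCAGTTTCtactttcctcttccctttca
Ifit1bl1, lower start, chr19:34599428-34599470, minus strand: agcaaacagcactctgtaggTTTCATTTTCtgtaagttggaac
Ifit1bl1, upper start, chr19:34602043-34602092, minus strand: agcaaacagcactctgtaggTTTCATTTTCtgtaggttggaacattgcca
Ifit1, chr19:34640765-34640833, plus strand: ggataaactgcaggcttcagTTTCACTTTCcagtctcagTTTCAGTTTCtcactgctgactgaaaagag
Ifit1bl2, chr19:34640765-34640833, minus strand: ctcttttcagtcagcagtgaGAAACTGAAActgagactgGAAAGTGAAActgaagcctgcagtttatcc

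The Ifit3 and Ifit3b stretches are the same letter for letter, and the 2 promoters had 258 identical bases of 260 aligned (99.2%). The 2 listed Ifit1bl1 promoters had 194 of 219 (88.6%). Reads from such copies can be hard to place, so the values at Ifit3 and Ifit3b are uncertain between them, and likewise those at the 2 Ifit1bl1 starts. Ifit1 and Ifit1bl2 are transcribed away from each other, and their stretches are 1 piece of DNA read on its 2 strands. Its 2 matches begin 104 and 85 bases before the Ifit1 start and 70 and 51 bases before the Ifit1bl2 start. In Ifit3 they begin 156 and 122 bases before the start, in Ifit3b 188 and 154, and in Ifit1bl1 23 (lower start) and 104 (upper start). With the shared pair counted once, 8 distinct matches remain. Each of the 8 lay whole within a peak in all 6 libraries. Ifit2, at both of its listed starts, and the inner start of Ifit1bl2 held no match, which says only that these letters are not in those windows.

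Each gene of the cluster had open chromatin at a listed start in every library of both groups. Of the 9 listed starts, 8 lay inside a peak in all 6 libraries, and the inner start of Ifit1bl2 did so in 0. Among all listed promoters, 37.1% of those with the match and 41.2% of those without it had a peak in all 6 libraries. A window of 212 kb, the 6 gene bodies with 50 kb on each side, held 27 regions after peaks that overlap or touch were merged over the 6 lists. Of these, 21 (77.8%) had a peak in all libraries, against 74.1% of 92757 regions over the genome. A member gene body held 15 of the 27 regions, and 12 of those 15 were present in all libraries.

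**Figure D1:**
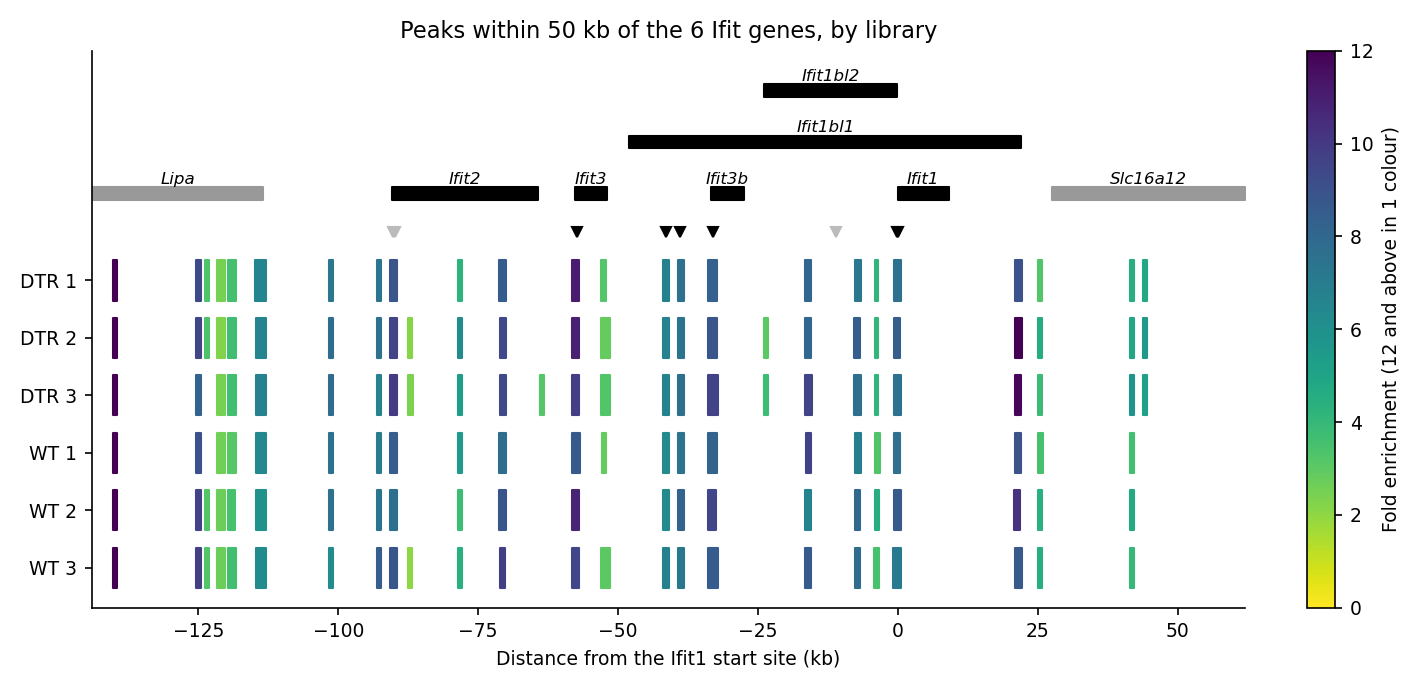
Peaks of each library (rows) within 50 kb of the Ifit genes, by distance from the Ifit1 start site in kb and coloured by fold enrichment over the caller's background; peaks are drawn 0.5 kb wider than they are. Black bars are Ifit gene bodies and grey bars neighbours, and triangles are listed start sites, black where the promoter holds the searched motif. Columns of peaks run through all 6 rows at 8 of the 9 start sites, and a weak peak inside Slc16a12 is seen in the 3 DTR rows.

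The lists give no read counts, so the depth of the libraries is unknown. They held 77867 to 84029 peaks and covered 43.8 to 50.1 Mb, with every DTR library above every WT library in both. All 12 monocyte markers of a fixed list, Csf1r, Spi1, Ccr2 and Cx3cr1 among them, had a peak within 1 kb of an end of the gene in each of the 6 libraries. The same held for 3 of 7 neutrophil, 2 of 4 B cell, 2 of 5 T and NK cell, 4 of 5 dendritic cell, 2 of 5 megakaryocyte and 2 of 4 erythroid genes. The part of other cells in the values below was not tested, and a change in the mix of monocytes cannot be told apart from a change within each cell.

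Peaks were slightly more numerous and covered slightly more sequence across the Ifit window in DTR than in WT, with overlapping groups. The window held 24, 26 and 26 peaks in DTR libraries 1 to 3 and 22, 22 and 24 in WT libraries 1 to 3. The lowest DTR library thus equalled the highest WT library, and the means were 25.3 ± 1.15 and 22.7 ± 1.15 (SD, n = 3 each). The covered length was 13303, 13687 and 14183 bp in DTR and 12896, 11264 and 13366 bp in WT. WT library 3 lay above DTR library 1, and WT library 2 was the lowest of all. The mean difference of 1216 bp fell to 593 bp without WT library 2. DTR over WT, the ratio of covered lengths was 1.10 for the window and 1.08 for the whole lists. The median width of peaks in the window was 516, 510 and 517 bp in DTR and 502, 469 and 499 bp in WT, so that the groups did not overlap, by 8 bp. How often this measure separates the groups over all genes was not computed, so it is not shown to be particular to the window. Over regions of all libraries, the DTR to WT ratio of covered length had a median of 1.05 in the window and 1.03 over the genome.

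By gene, the windows of 50 kb on each side overlap heavily, and 5 regions fall in all 6 of them, so the genes are not independent of each other. Covered length was higher on average in DTR at all 6 genes, as it was at 88.2% of 18152 genes with a peak in their window. The ratio of DTR to WT lay between 1.11 and 1.15 over the 6 genes, with a median of 1.13, against a median of 1.06 over all genes. Around Ifit1 it was 5800, 5658 and 5669 bp in DTR and 5471, 4544 and 5402 bp in WT. Ifit1 was the 1 member of 6 (16.7%) at which every DTR library lay above every WT library, a pattern seen at 23.9% of all genes tested. The reverse pattern was seen at 0 members and at 0.325% of genes. With peaks of a q of at most 1e-05 alone, the groups overlapped at Ifit1 too, so that 0 members were apart, while 25.6% of all genes had DTR above. In the Ifit1 body alone, covered length was 324, 238 and 334 bp in DTR and 203, 251 and 262 bp in WT, with overlap. By gene body, 3 of the 6 members were apart with DTR above, against 15.9% of all genes. They were Ifit2, Ifit1bl1 and Ifit1bl2. The long Ifit1bl1 body spans that of Ifit1bl2, so their calls rest in part on the same peaks.

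Around Ifit2 the covered length was 10282, 10902 and 11540 bp in DTR and 9896, 9061 and 10638 bp in WT. Around Ifit3 it was 6868, 7492 and 8125 bp in DTR and 6826, 5666 and 7172 bp in WT. In both windows WT library 3 exceeded DTR library 1. The other 3 genes showed the same overlap between these libraries. Without DTR library 1, or without WT library 3, all 6 genes had groups that did not overlap, and so did 29.8% and 33.4% of all genes (DTR above). When covered length was taken as a share of the library's total, the groups overlapped at all 6 genes, and over all genes 5.88% then had DTR above and 11.8% DTR below.

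**Figure D2:**
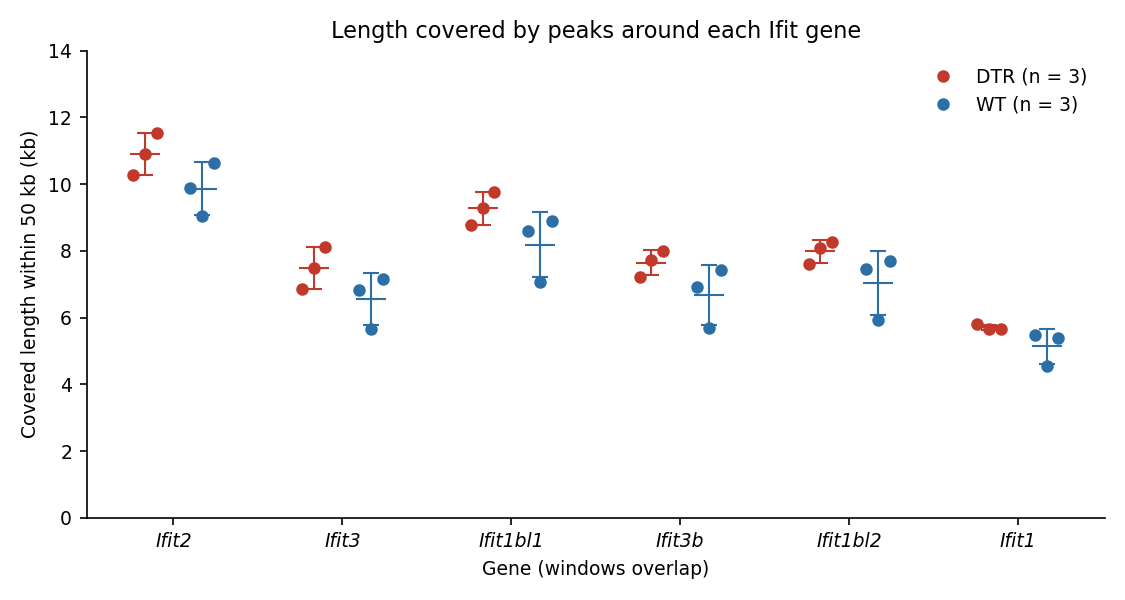
Length covered by peaks within 50 kb of each Ifit gene, in kb, by group; points are libraries, and the crossbars are the mean with 1 SD (n = 3). DTR means lie above WT means at each gene, and the points of the groups are separate at Ifit1 alone.

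Peak numbers were apart at Ifit1 and Ifit1bl2, and this rested on 1 weak region. Within 50 kb of Ifit1 there were 11, 12 and 12 peaks in DTR and 10 in each WT library. Within 50 kb of Ifit1bl2 there were 14, 15 and 16 in DTR and 13, 12 and 13 in WT. Such a DTR excess in number was thus seen at 2 of 6 genes (33.3%) and the reverse at 0, against 5.32% and 0.507% of all genes. Both windows hold a region at 34684967 to 34685124, inside the body of the neighbour Slc16a12, a gene of the monocarboxylate transporter family. Its folds were 4.79, 5.54 and 5.19 in the DTR libraries, and no WT library had a peak there. Without it the numbers were 10, 11 and 11 against 10, 10 and 10 at Ifit1, and the groups overlapped at both genes, while the covered length around Ifit1 still had every DTR library above every WT library. This was the 1 DTR-only region of the 27, and 0 were WT-only, against 0.820% and 0.0992% of regions over the genome.

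Fold enrichment, the height of a peak over the caller's background, differed little between the groups at the starts of Ifit genes. Over the 21 regions of all libraries, the median fold of a library was 7.33, 7.75 and 7.69 in DTR against 7.44, 7.56 and 7.18 in WT. The groups overlapped, and their means were 7.59 ± 0.23 and 7.40 ± 0.194 (SD, n = 3 each). Over all peaks of the window, those not found in every library included, the median was lower on average in DTR. It was 7.25, 7.03 and 6.69 in DTR and 7.22, 7.46 and 6.94 in WT, with overlap. Within 50 kb of each gene, that median was likewise lower on average in DTR, except at Ifit3b (means of 7.75 and 7.72). The groups overlapped at all 6 genes. DTR lay above WT without overlap at 2 of 21 regions (9.52%) and below at 1 (4.76%), against 10.4% and 5.15% of 68712 regions over the genome. The 2 were the start of Ifit2 and the edge of the Lipa body that faces the cluster, and the 1 lay further inside the body of Lipa. With each fold divided by the library's median, 0 were above and the 1 in Lipa stayed below, against 6.78% and 11.2% over the genome. In Ifit gene bodies the mean fold was higher in DTR at 11 of 12 regions, against 55.2% over the genome, with a median ratio of 1.04 against 1.01. Without DTR library 1 the counts over the window were 6 above and 1 below, without WT library 2 they were 5 and 1, and without WT library 3 they were 4 and 2. Over the genome DTR was above at 15.7%, 15.2% and 18.1% of regions in those same settings, and below at 9.56%, 8.58% and 7.44%.

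At the Ifit2 start (34550372 to 34551153), folds were 8.86, 9.59 and 9.91 in DTR against 8.52, 7.62 and 8.80 in WT. The lowest DTR value thus lay just above the highest WT value. At the Ifit3 start (34582854 to 34583784) they were 11.1, 10.9 and 9.81 in DTR and 8.72, 10.8 and 9.45 in WT. These were among the highest of the window, with a median percentile of 94.3 within the libraries' own lists, and WT library 2 stood among the DTR values. At the Ifit3b start (34607242 to 34608471) folds were 8.30, 8.90 and 9.62 in DTR and 8.25, 9.51 and 8.57 in WT.

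At the divergent start of Ifit1 and Ifit1bl2 (34640364 to 34641222), folds were 7.57, 8.47 and 7.49 in DTR against 7.55, 8.71 and 7.10 in WT. The highest value was thus that of a WT library. The lower Ifit1bl1 start (34599199 to 34599707) had folds of 6.78, 6.69 and 6.64 in DTR against 6.31, 6.29 and 6.78 in WT. The upper one (34601832 to 34602365) had 7.55, 7.38 and 7.69 in DTR and 7.44, 8.16 and 7.18 in WT. At each of these 3 starts the 2 groups overlapped.

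**Figure D3:**
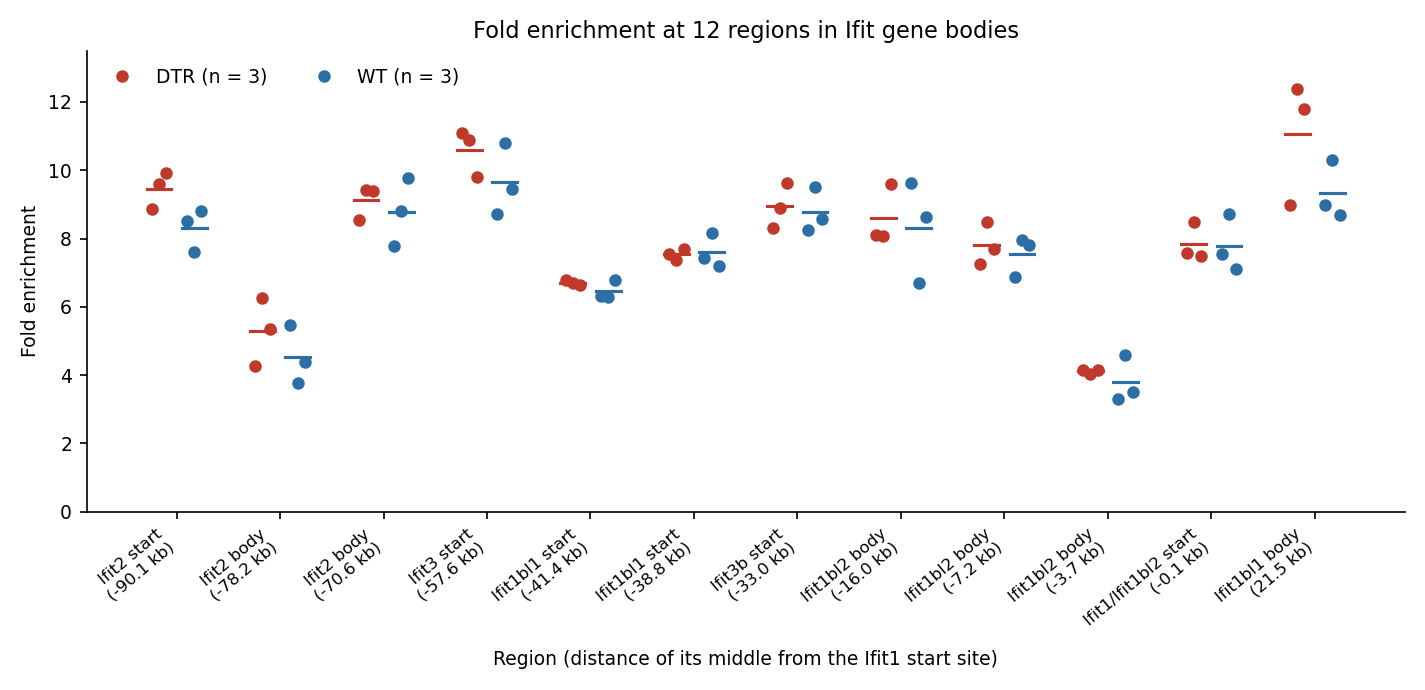
Fold enrichment at the 12 regions in Ifit gene bodies that have a peak in all 6 libraries, in order along the chromosome; points are libraries (n = 3 per group) and short lines are means. The groups are separate at the Ifit2 start and overlap at the other 11 regions.

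Away from listed starts, the gene bodies held 6 further regions of all libraries. The strongest lay at the upper end of the Ifit1bl1 body (34661937 to 34662854), beyond Ifit1, with folds of 8.97, 12.4 and 11.8 in DTR and 8.98, 10.3 and 8.69 in WT. DTR library 1 lay within the range of the WT libraries there. Ifit1bl1 is on the minus strand, so this is the upstream end of its body, although no start is listed there. Within Ifit2, a region at 34569881 to 34570680 had folds of 8.54, 9.42 and 9.41 in DTR and 7.80, 8.81 and 9.76 in WT. A narrower one at 34562553 to 34562820 had 4.26, 6.27 and 5.35 in DTR against 5.46, 3.77 and 4.39 in WT.

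The other 3 lay in the body of Ifit1bl2, which the long Ifit1bl1 body also spans. Folds at 34624596 to 34625232 were 8.09, 8.09 and 9.59 in DTR and 9.63, 6.68 and 8.63 in WT. Folds at 34633346 to 34634069 were 7.24, 8.47 and 7.70 in DTR and 6.88, 7.96 and 7.81 in WT. At 34636979 to 34637378 they were 4.16, 4.04 and 4.16 in DTR and 3.32, 4.58 and 3.51 in WT. In each of these 6 regions at least 1 WT library lay above at least 1 DTR library.

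Covered length within a region separated the groups at 4 of 21 regions, all with DTR wider, against 13.0% of regions over the genome, and 0 were narrower, against 1.87%. They were the 2 Ifit1bl1 starts and 1 region each in Ifit2 and Ifit1bl2. The Ifit2 region at 34562553 to 34562820 was 248, 198 and 268 bp wide in DTR against 171, 154 and 158 bp in WT. The Ifit1bl2 region at 34624596 to 34625232 was 623, 622 and 623 bp in DTR and 343, 603 and 455 bp in WT. It also covers an end of a pseudogene, Cnn2-ps. The DTR values there were all but equal, while the WT values varied widely.

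At the Ifit1bl1 starts the separation was small. The lower start was covered over 497, 501 and 509 bp in DTR and 492, 484 and 492 bp in WT, and the upper over 534, 518 and 529 bp in DTR and 511, 448 and 512 bp in WT. As a share of the library's total, DTR was above at 1 and below at 4 regions of the 21, against 3.25% and 20.7% over the genome. Without DTR library 2 there were 7 above and 0 below, without DTR library 3 there were 6 and 1, and without WT library 3 there were 6 and 2. DTR was above at 22.9%, 18.1% and 20.1% of regions over the genome in those settings, and below at 3.50%, 4.30% and 4.22%.

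Peaks of the cluster had smaller p-values in DTR. The −log10 of the caller's p-value, which grows with the number of reads in a peak as well as with its fold, was higher on average in DTR at all 12 regions of Ifit gene bodies, as it was at 79.5% of regions over the genome. The ratio of DTR to WT means had a median of 1.40 over these 12 regions (range 1.14 to 1.53). Over the genome the median was 1.10, with 0.882 and 1.47 as the 5th and 95th percentiles. Every DTR library lay above every WT library at 7 of the 12 (58.3%), and at 9 of the 21 regions of the window (42.9%), against 19.8% over the genome. DTR lay below at 1 region, in Lipa, against 1.55%. This measure was added after the lists had been examined, and the regions share their libraries, so their number adds no replication.

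At the Ifit3 start the −log10 p was 64.5, 66.6 and 75.4 in DTR against 43.2, 50.9 and 40.8 in WT. The lowest DTR value thus stood well clear of the highest WT value. At the Ifit2 start it was 171, 190 and 237 in DTR and 163, 105 and 141 in WT. At the lower Ifit1bl1 start it was 85.6, 89.7 and 98.1 in DTR against 74.0, 63.6 and 71.1 in WT. The groups did not overlap at these 3 starts, nor at the upper Ifit1bl1 start, where the values were 99.5, 104 and 124 in DTR against 95.5, 94.2 and 76.9 in WT.

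At the Ifit3b start and at the start shared by Ifit1 and Ifit1bl2 the groups overlapped. The Ifit3b start had 56.7, 66.5 and 97.5 in DTR against 56.8, 52.4 and 45.0 in WT. The overlap there was a near tie, of 56.746 in DTR library 1 and 56.751 in WT library 1. Since reads of Ifit3 and Ifit3b can be hard to place, a difference between these 2 starts cannot be told. The start shared by Ifit1 and Ifit1bl2 had 66.4, 75.8 and 76.3 in DTR and 62.7, 67.4 and 50.1 in WT. At both the Ifit3b start and the shared start, DTR library 1 lay among the WT values.

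Off the listed starts, 3 more regions were apart by −log10 p. They were the Ifit2 region at 34569881 (58.8, 77.6 and 101 in DTR against 49.2, 53.1 and 56.7 in WT), the Ifit1bl2 region at 34633346 (45.3, 61.4 and 56.0 against 41.0, 41.3 and 41.1), and the upper end of Ifit1bl1 (58.6, 79.5 and 85.5 against 54.8, 58.2 and 46.7). DTR library 1 was the lowest of its group at each of the 3.

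The −log10 p was higher over the whole genome in DTR too. Its median over the 68712 regions of all libraries was 38.2, 37.2 and 38.7 in DTR and 36.5, 31.8 and 32.9 in WT. Each value was then divided by that median. The ratio of DTR to WT had a median of 1.24 over the 12 regions of Ifit gene bodies, against 0.979 over the genome. DTR means remained higher at 12 of 12 and at 16 of 21 in the window, against 29712 of the 68712 regions over the genome. The groups were then apart at 3 of the 12, the Ifit2, Ifit3 and lower Ifit1bl1 starts, and in the window at 4 of 21 above and 1 below, against 7.15% and 11.5% over the genome. The part of depth in these values was not tested, since the lists hold no read counts.

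**Figure D4:**
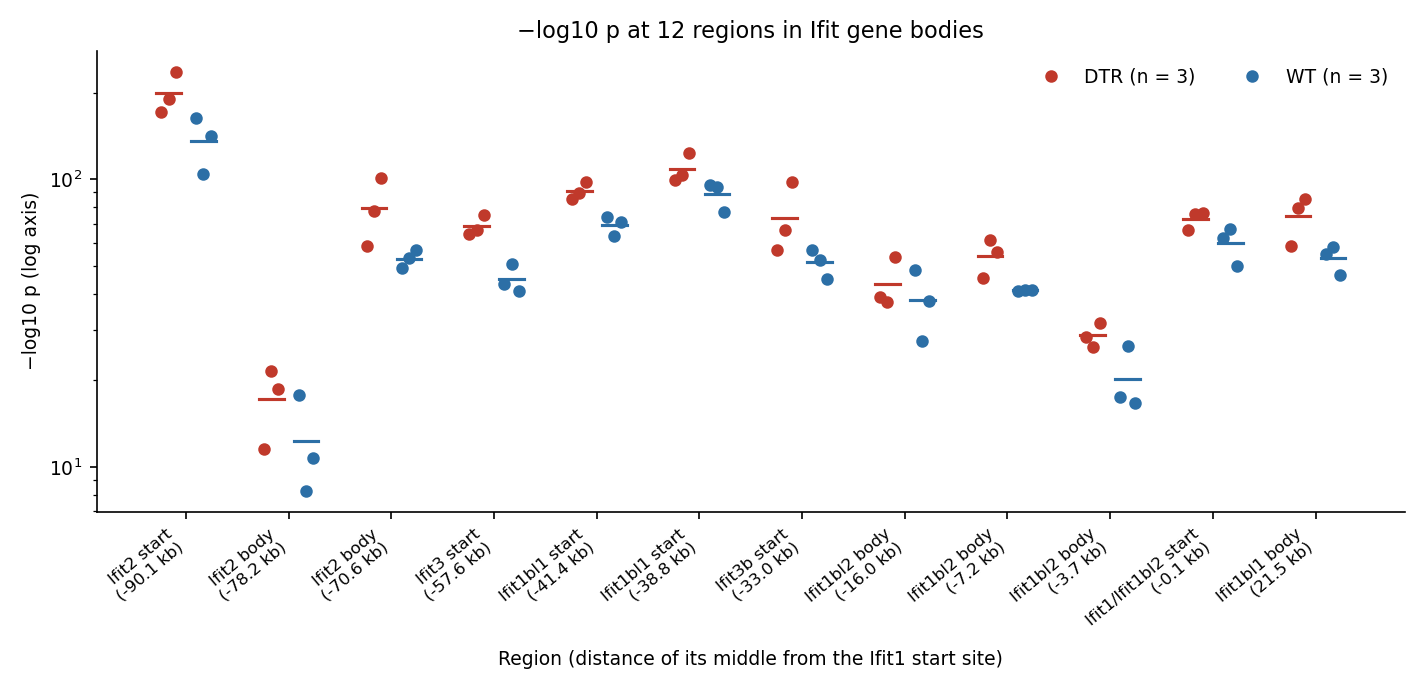
The −log10 p of the same 12 regions on a log axis, by library (points) and group mean (lines), with n = 3 per group. DTR means are higher at each region, and the points of the groups are separate at 7 of the 12.

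**Figure D5:**
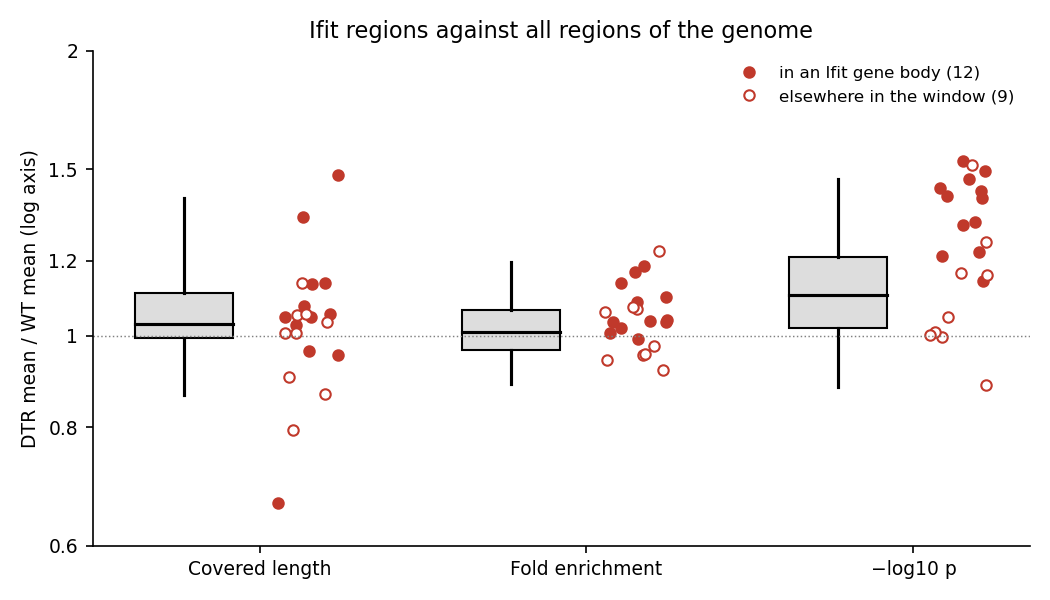
Ratio of the DTR to the WT mean on a log axis for the 21 regions of the Ifit window (filled, in an Ifit gene body; open, elsewhere in the window), beside all 68712 regions of the genome (box, quartiles with the median; whiskers, 5th to 95th percentile). For −log10 p the filled points run from 1.14 to 1.53, above the genome's median of 1.10, and for fold they run from 0.993 to 1.19 around a genome median of 1.01.

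Weak regions varied within the groups as well as between them. At the far end of the Ifit3 body, a region at 34588174 to 34589155 had folds of 3.20, 2.82 and 3.26 in DTR, 2.82 and 3.04 in WT libraries 1 and 3, and no peak in WT library 2. Inside Ifit2, a region at 34553625 to 34553978 was called in DTR libraries 2 and 3 (2.16 and 2.35) and in WT library 3 (2.02). A region at the lower end of Ifit1bl2, 34617279 to 34617500, was called in DTR libraries 2 and 3 alone (3.06 and 3.75). Beyond the upper end of Ifit2, a region at 34577199 to 34577363 was called in DTR library 3 alone (3.21).

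How the count of other interferon pathway genes stood to that of all genes depended on the measure. A list of 43 genes matched in the gene table was compared in the same way, by covered length within 50 kb. Windows of genes near each other, such as those of the Oas family, can share peaks, so the genes counted need not be independent. DTR lay above WT without overlap at 10 of the 43 (23.3%) and below at 0, against the 23.9% and 0.325% given above for all genes. The median ratio of DTR to WT was 1.07 over the 41 of them with a peak nearby, against 1.06 for all genes. Ifi44 and Ifi44l had no peak within 50 kb in any library. By role, the count was 1 of 4 receptors and kinases (Ifnar1, a chain of the type I interferon receptor). It was 1 of 8 transcription factors (Irf3, which starts interferon production). For genes of nucleic acid sensing, Sting1 among them, it was 0 of 6, and for effectors 8 of 25.

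The 3 largest ratios were at effectors. Around Oas1a, which makes an activator of RNase L, covered length was 5819, 6572 and 6883 bp in DTR and 2849, 3452 and 2508 bp in WT. Around Ddx60, a helicase of the antiviral response, it was 1939, 2557 and 2458 bp in DTR and 1772, 1556 and 1536 bp in WT. Around Parp14, an ADP-ribosyltransferase, it was 9603, 10575 and 12519 bp in DTR against 8878, 7874 and 8465 bp in WT. The groups did not overlap at any of the 3, and the ratios were 2.19, 1.43 and 1.30, above the 1.11 to 1.15 of the Ifit genes.

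As a share of the library's total, 5 genes of the list were above (11.6%) and 1 below (2.33%), against 5.88% and 11.8% of all genes. In the number of peaks, 5 were above (11.6%) and 0 below, against 5.32% and 0.507%. With peaks of a q of at most 1e-05 alone, 20 of the 43 were above in covered length, against 25.6% of all genes. The count of 10 was 20 without DTR library 2, 25 without WT library 1 and 17 without WT library 3, where 42.6%, 46.3% and 33.4% of all genes had DTR above. The searched motif was present in a promoter of 12 of the 43 genes (27.9%), against 3.99% of all genes with a listed promoter.

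The genes most like the cluster were sought by the covered length within 50 kb, as a share of the library's total. Over the 6 libraries, the highest Pearson correlations with the Ifit window, among 17704 genes over 1 Mb away, were those of Spag9 (0.988), Emc10 (0.987), Mybpc2 (0.986), Thsd7a (0.983) and Rapgef5 (0.983). The windows of Emc10 and Mybpc2 overlap. Around Thsd7a only 257 to 413 bp were covered in a library, so its correlation rests on little sequence. A correlation above 0.9 was reached by 86 genes. All points share the same 6 libraries and their totals, and the best of so many genes are high by selection.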

How the data were processed

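The authors deposited 6 lists of broad peaks, 1 per library. The fold enrichment of a peak is a ratio that the authors' peak caller computed before deposit. The −log10 p and −log10 q of each peak are likewise as deposited by the authors. The deposited score is 10 times the −log10 q, as a whole number. The tools named in the submitters' processing notes are MACS2, Bowtie2 2.4.4, Bowtie and fastp. For their settings, any transposase shift and the build: not given in the sources used here. Coordinates count from 1, with 1 added to each deposited start. Gene names, start sites and promoter sequences are from RefSeq, GRCm38.p6. On chromosome 19, 47.9% of 1044 listed starts lay in a peak of all 6 libraries, against 3.54% and 2.97% after a shift of 5 and 20 kb.

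Peaks that overlap or touch were merged over the 6 lists. A region took a library's highest fold and −log10 p and the summed width of its peaks. Groups were called apart when all 3 DTR values lay above, or all below, the 3 WT values, and the same call was made over all regions, or over all protein-coding genes with a peak within 50 kb. Values are per library with mean and SD. Scripts ran in Python 3.11.15 with numpy 2.4.6 and were tested on simulated lists. No sample was left out or imputed. The members and all gene lists were chosen with earlier results of these data known. The rule for named items took all 6 genes, every region in or within 1 kb of a member's body, and group-only regions. Of the interferon list it took up to 3 genes per direction with the largest relative difference. It also took the 5 genes most like the cluster. Mx1, Mx2 and Rigi matched no protein-coding gene of the table. The alternatives tried are given in the closing section.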

Additional observations from a re-analysis of the deposited data

How the results depend on the processing

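Of 116 alternative values over 18 settings, 85 stayed within 1.5 times of a count or within 1 SD of a difference, 29 moved further and 2 turned direction. The 2 that turned were regions apart by covered length, taken as a share of the library's total (5, of which 1 above and 4 below), and regions apart by fold, divided by the library's median (1, below). The tally mixes units and holds settings that cannot change a value, so it does not measure robustness. With folds divided by the library's median, the difference was 0.00609, which counted as stayed by the SD of 0.213 of undivided folds. The share of covered length counted as moved by an SD in bp. With lists of equal length the differences in peaks and covered length were 2.33 and 896 bp. The counts of regions, members and interferon genes apart were as reported, while the share of all genes with DTR above fell from 23.9% to 17.2%. With peaks up to 200 bp apart joined, run for regions and the number of peaks, the counts were as reported. At a q of at most 1e-05, 0 members and 20 interferon genes were apart by covered length, and 25.6% of all genes had DTR above. With 10 kb on each side, 1 region was apart by fold and 0 were group-only. By covered length, 1 member and 15 of the 43 interferon genes were apart in that setting, where 19.3% of all genes had DTR above. Without extension, the difference in peaks was 1.33, with 1 region apart by fold and 0 group-only regions. In that setting 3 members were apart (Ifit2, Ifit1bl1 and Ifit1bl2, and not Ifit1), where 15.9% of all genes had DTR above. As a share of the library's total, 0 members and 6 interferon genes were apart, and the window's difference was 5.91 bp per Mb covered. With values divided by the library's median, 5 regions were apart by −log10 p. On the strand of the gene alone, 1 Ifit promoter held the motif, and 4 held a longer form of it, with CT after the last GAAA, on either strand. Leaving out 1 library, which loosens the call, gave 5 to 8 regions apart by covered length in either direction and 3 to 7 by fold, 1 to 2 group-only regions (the second, at 34617279 in Ifit1bl2, without DTR library 1), 1 to 6 members and 10 to 25 interferon genes. Over the genome, 17.1% to 27.4% of regions were then above and 3.48% to 5.73% below by covered length. By fold, 15.1% to 18.1% were above and 7.44% to 14.8% below. Of all genes, 26.0% to 46.3% were above and 0.618% to 2.57% below. No such share was taken for group-only regions. Deviations from the group means gave correlations of 0.00251, 0.0736 and −0.0316 between same-numbered libraries over 68712 regions, and not every library correlated best with its own number. With a replicate block, which asks only that each DTR library differ from the WT library of its number, 10 regions were apart by covered length, 6 by fold, and 6 members and 24 interferon genes. Over the genome, 26.5% of regions were then above and 5.26% below by covered length, 19.8% and 11.8% by fold, and 46.4% of genes above; the differences in means are equal by construction. Read depth is unknown, so whether a peak is missing for want of reads was not tested. For the moved values the cause was not tested.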

Other observations

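Lipa, the gene of lysosomal acid lipase, lies beside Ifit2, and 6 regions of the window fell in its body, 5 of them with a peak in all libraries. At the edge of its body that faces the cluster (34526354 to 34527679) folds were 6.53, 6.59 and 6.72 in DTR against 6.37, 5.95 and 6.27 in WT. The groups did not overlap there. At 34519395 to 34520446 in its body folds were 2.51, 2.30 and 2.49 in DTR and 2.58, 2.68 and 2.68 in WT, with DTR below. The highest fold of the window was also in Lipa (34500808 to 34501087), at 17.4, 17.3 and 17.2 in DTR and 18.7, 17.9 and 16.6 in WT, and there the groups overlapped. These 3 regions were picked after their values were seen.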
